A study of Mus musculus with 33 samples.

Results

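The genes described here are 9 transcription regulators, Id1, Id2, Id3, Maf, Bhlhe40, Bhlhe41, Cebpa, Cebpb and Spi1, out of the 24421 genes in each deposited count file. They were found by symbol, each as 1 row in all 33 files, by a rule that used names and no measured value. The 9 genes were nevertheless chosen with earlier results of these data known. The data are bulk RNA-Seq libraries of sorted mouse Kupffer cells (KCs), the resident macrophages (macs) of the liver, and alveolar macrophages (AMs), the resident macs of the lung airspaces. The question was how these cells change when Zeb2, a zinc finger transcription factor that represses genes through E-box sequences, is deleted in them. CRE- KCs came from Zeb2fl/fl mice (n = 6), and Tim4+ and Tim4- KCs from Clec4f-crexZeb2fl/fl mice (n = 6 each). CRE- AMs came from Zeb2fl/fl mice (n = 5), and CD11b- and CD11b+ AMs from Itgax-crexZeb2fl/fl mice (n = 5 each). All mice were C57Bl/6 and, unless otherwise stated, 6 to 8 weeks old, and every group carries the floxed Zeb2 allele. The Clec4f promoter drives Cre in KCs and in a few B cells, whereas the Itgax promoter, that of the CD11c gene, also drives Cre in other CD11c-expressing cells, so the Cre driver differs with the organ. The paper reports that Tim4 on KCs goes with how long they have been in the liver, so Tim4+ and Tim4- KCs can differ in origin. The CRE+ sorts of both organs can hold cells that keep a Zeb2 allele. No label says that the libraries of a group came from separate mice, so p-values measure the spread between these samples.

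The Id proteins are helix-loop-helix factors that lack a DNA-binding region and hold E proteins such as Tcf3 and Tcf4 in dimers that cannot bind E-boxes, and their genes are textbook targets of BMP signalling through SMAD factors. Maf (c-Maf) is a bZIP factor known for restraining self-renewal of mature macs. Bhlhe40 and Bhlhe41 are helix-loop-helix repressors that bind E-boxes and belong to the circadian feedback loop. Cebpa and Cebpb are bZIP factors of myeloid cells, and Spi1 encodes PU.1, the ETS factor that all macs depend on.

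The files held between 9837240 and 24332306 counts over genes, so that 3 counts stood for 0.123 to 0.306 CPM, counts scaled to a library of fixed total. Mean Zeb2 was 283 CPM in CRE- KCs against 175 in Tim4+ and 170 in Tim4- KCs, and 194 CPM in CRE- AMs against 105 in CD11b- and 62.1 in CD11b+ AMs. The deletion can leave a shortened Zeb2 transcript, so these counts check it only in part. Summed KC markers (Clec4f, Vsig4, Timd4, Cd5l) were 8730 to 22900 CPM in the KC libraries and 0 to 12.3 CPM in the AM libraries, and summed AM markers (Siglecf, Chil3, Marco, Itgax, Krt79) were 18700 to 54200 CPM in AMs and 310 to 2250 CPM in KCs, which matches the labels. KC replicates 5 and 6 of each group held no Xist counts and 1304 to 1720 counts of the Y-linked gene Ddx3y, whereas all other libraries had Xist counts. In bulk samples, fewer cells of a type and less RNA per cell cannot be told apart.

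Promoter sequence was found for 5 of the 9 genes, Id2, Id3, Bhlhe41, Cebpa and Cebpb, in the RefSeq table of GRCm38.p6. The starts in that table match the 5′ end of the GENCODE gene for Cebpa and Cebpb, but lie 138 bases inside the GENCODE gene for Bhlhe41, 325 for Id3 and 1048 for Id2, so the Id2 window lies within the longest gene model and not before it. The 250 bases before each RefSeq start were searched on both strands for CACCTG, the E-box that ZEB factors bind, for CACGTG, the E-box that Bhlhe40 and Bhlhe41 bind, and for GGCGCC, a SMAD element of BMP target genes. Of the 32851 promoter windows in the table, 17.2% held CACCTG or its reverse complement CAGGTG, 6.02% held CACGTG and 9.59% held GGCGCC. No motif overlapped another in the windows shown. The windows that held a motif are printed 5′ to 3′ on the gene's own strand, as far as they lie outside its annotated exons, with the motif in capitals.
Id2, chr12:25096254-25096342, minus strand: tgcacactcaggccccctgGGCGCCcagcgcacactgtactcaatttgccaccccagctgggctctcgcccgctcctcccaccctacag
Bhlhe41, chr6:145865559-145865670, minus strand: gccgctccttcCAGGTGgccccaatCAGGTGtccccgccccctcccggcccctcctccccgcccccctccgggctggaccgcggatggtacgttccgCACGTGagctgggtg
Cebpa, chr7:35119043-35119292, plus strand: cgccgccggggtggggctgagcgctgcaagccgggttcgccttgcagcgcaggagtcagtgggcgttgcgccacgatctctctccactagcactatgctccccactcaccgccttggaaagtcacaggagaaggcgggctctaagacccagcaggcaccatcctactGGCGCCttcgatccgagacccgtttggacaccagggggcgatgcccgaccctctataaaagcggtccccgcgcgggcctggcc
GGCGCC stood 231 bases before the RefSeq start of Id2 and 83 before that of Cebpa. The Bhlhe41 window held CAGGTG at 239 and 225 bases and CACGTG at 153 bases before its RefSeq start. The Cebpb window and the Id3 window, which lies wholly in annotated exon sequence, held none of the 3 motifs.

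Before any deletion, the same regulators stood at very different levels in the 2 kinds of mac. In CRE- KCs compared with CRE- AMs, 3 of the 9 genes were higher (Id2, Id3 and Maf) and 3 were lower (Bhlhe40, Bhlhe41 and Cebpb), where changed means an adjusted p under 0.05 in edgeR's quasi-likelihood test and a log2 fold change beyond 1 in size. By the same rule 20.9% of the 12145 genes tested were higher and 12.4% lower, and 63.2% passed the adjusted p alone, so a difference between the organs was common. The median log2 fold change was -0.14 over the 9 genes and 0.03 over all genes tested.

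**Figure D1:**
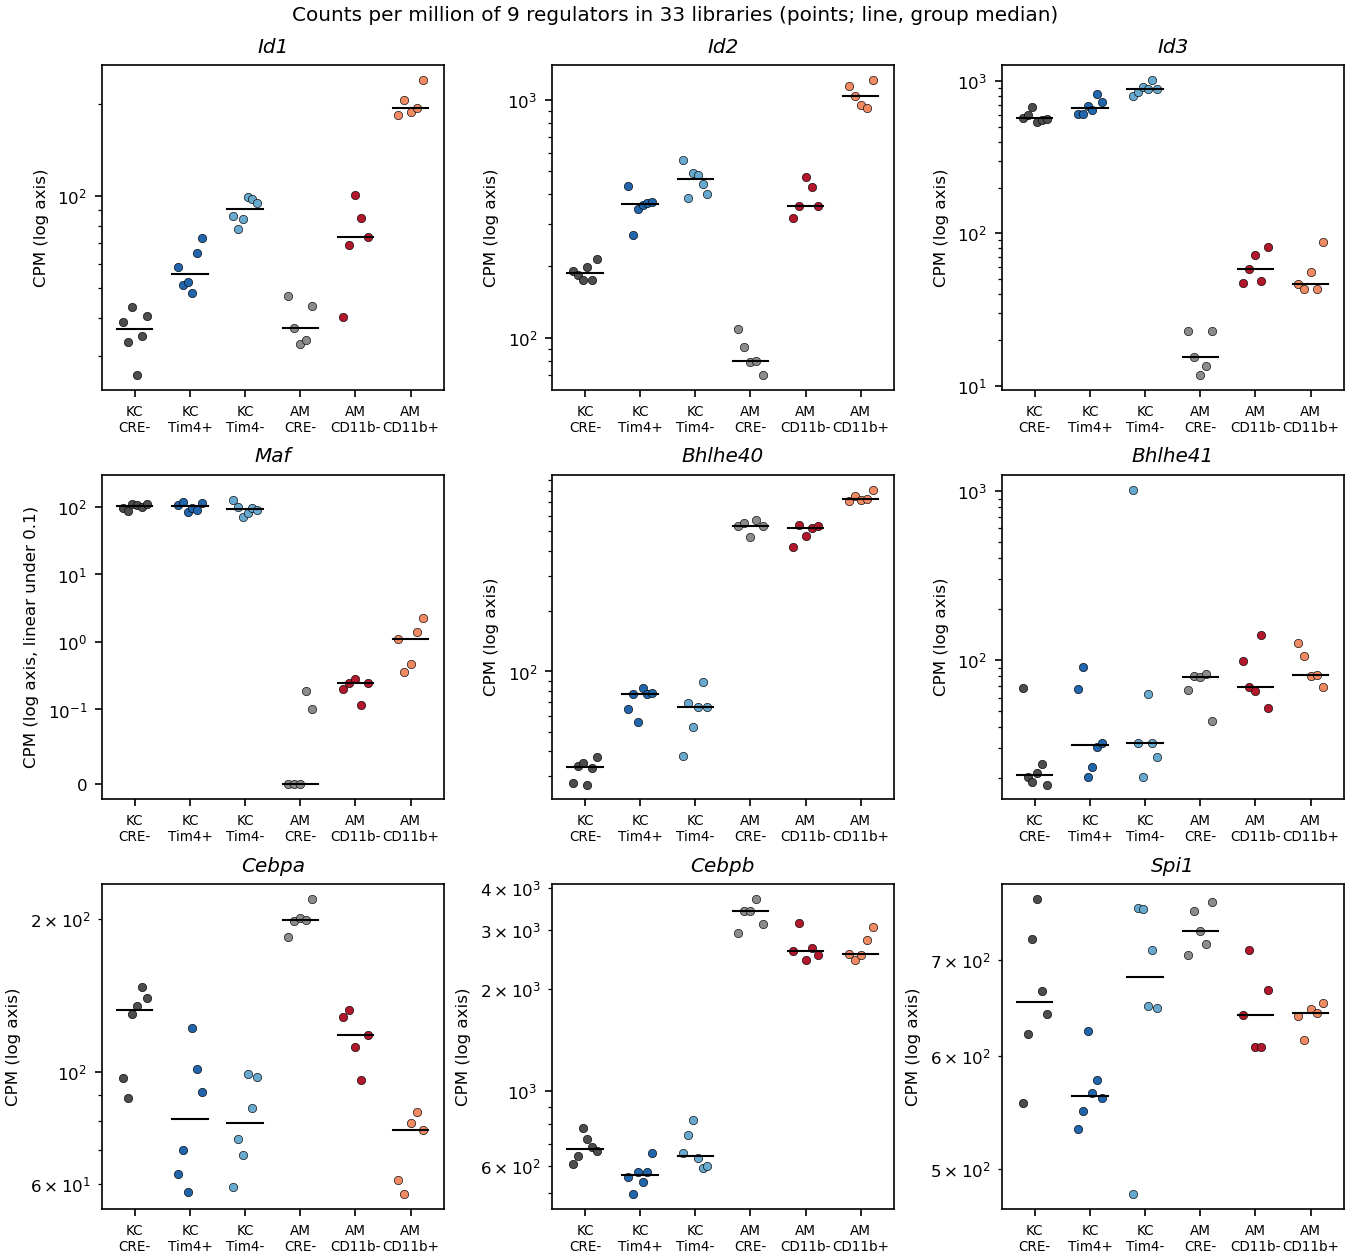
CPM (log axes, for Maf linear under 0.1) of the 9 regulators in all 33 libraries, by group; each point is 1 library and each line the group median. Id3 and Maf are high in all KC groups and Bhlhe40 and Cebpb in all AM groups, Id1 and Id2 are highest in CD11b+ AMs, and 1 Tim4- KC library stands at 1020 CPM of Bhlhe41.

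Id3 (chr4:136143497-136145755, plus strand, GRCm38), an inhibitor known for its part in KC development, ranged from 539 to 679 CPM in CRE- KCs with a median of 571. In CRE- AMs it was 22.7, 15.5, 11.7, 13.4 and 22.7 CPM in replicates 1 to 5, so the groups lay far apart and the level was 34.3 times higher in KCs (adjusted p = 7.29e-12). Id2 (chr12:25093799-25097140, minus strand) ranged from 175 to 215 CPM in CRE- KCs and was 109, 91.4, 79.2, 80.1 and 69.6 CPM in CRE- AMs. Id2 was thus higher in every KC library, by 1.15 ± 0.1 on the log2 scale (SE, adjusted p = 2.16e-07 by edgeR). Id1 (chr2:152736251-152737410, plus strand), in contrast, overlapped between the organs, with 25.9 to 43.4 CPM in CRE- KCs and 47, 37.1, 32.7, 33.7 and 43.8 CPM in CRE- AMs (log2 fold change -0.1 ± 0.14, adjusted p = 0.559 by edgeR).

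Maf (chr8:115682942-115707794, minus strand) was present in KCs and near absent in AMs. CRE- KCs held 86.1 to 112 CPM with a median of 103, whereas the CRE- AM libraries held 0, 0, 0, 4 and 2 Maf counts. No fold is given, since the AM counts lie at about the floor of 3 counts. The edgeR adjusted p was 4.23e-13, and no AM library came near any KC library.

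Bhlhe40 (chr6:108660629-108666925, plus strand) had the opposite pattern. It was 532, 552, 467, 572 and 531 CPM in CRE- AMs and 27.2 to 37.5 CPM in CRE- KCs with a median of 33.3. The groups did not overlap, and Bhlhe40 was 16.3 times lower in KCs (log2 fold change -4.03 ± 0.09, adjusted p = 1.23e-13 by edgeR). Its relative Bhlhe41 (chr6:145858243-145865558, minus strand) was 66.9, 80.1, 79.3, 82.3 and 43.6 CPM in CRE- AMs. In CRE- KCs Bhlhe41 was 18.3 to 24.1 CPM in 5 libraries and 68.7 CPM in replicate 1, so the groups overlapped, although the difference passed the test (log2 fold change -1.28 ± 0.33, adjusted p = 0.00327 by edgeR). With all 33 libraries in 1 fit it did not pass (-1.3, adjusted p = 0.104).

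Cebpb (chr2:167688915-167690418, plus strand), known for its part in inflammatory gene expression in macs, was 2940, 3410, 3420, 3700 and 3130 CPM in CRE- AMs against 611 to 776 CPM in CRE- KCs, 4.82 times lower in KCs (log2 fold change -2.27 ± 0.07, adjusted p = 2.93e-12 by edgeR). Cebpa (chr7:35119293-35121928, plus strand), which drives the commitment of myeloid progenitors, differed by less. It was 184, 198, 201, 199 and 219 CPM in CRE- AMs and 88.7 to 147 CPM in CRE- KCs, lower in every KC library but within the fold cut-off (log2 fold change -0.69 ± 0.12, adjusted p = 0.000151 by edgeR). Spi1 (chr2:91082390-91115756, plus strand) did not pass the test, with 556 to 772 CPM in CRE- KCs and 706, 757, 733, 718 and 768 CPM in CRE- AMs (log2 fold change -0.14 ± 0.07, adjusted p = 0.114 by edgeR). The groups overlapped for Spi1.

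Levels of different genes can be compared only per length, here as CPM per kb of annotated exon. In CRE- KCs the median was highest for Cebpb with 449 CPM per kb, then Id3 with 319 and Spi1 with 243, followed by Id2 with 76.7, Cebpa with 50.5, Id1 with 31.6, Maf with 12.5, Bhlhe40 with 7.08 and Bhlhe41 with 3.11. In CRE- AMs Cebpb was again first with a median of 2270 CPM per kb and Spi1 next with 272, but Bhlhe40 came before the Id genes with 113, and Id3 had 8.65. The exon unions ran from 1.16 kb for Id1 to 8.24 kb for Maf. Opposite-strand genes overlap Maf, Bhlhe40, Bhlhe41, Cebpa and Cebpb in the annotation, and whether the counting used strand is not given in the sources used here, so reads of these partners cannot be told apart.

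Id1 and Id2 passed the test as higher in all 4 CRE+ groups by adjusted p, and Id3 in all but Tim4+ KCs (edgeR). In either direction, 6.09% of all genes tested passed in Tim4+ KCs, 25.4% in Tim4- KCs, 25.7% in CD11b- AMs and 43.2% in CD11b+ AMs. Id2 was higher than in the CRE- group of its organ in every library of all 4 CRE+ groups, and Id1 in every library of 3 of them. The share of all genes with such a full separation was not counted, so a lack of overlap is given as a description here and below. In CD11b+ AMs Id2 was at 12.1 times its level in CRE- AMs. Each pair of CRE+ groups was compared with the same CRE- libraries of its organ, so the values of the pair are not independent.

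**Figure D2:**
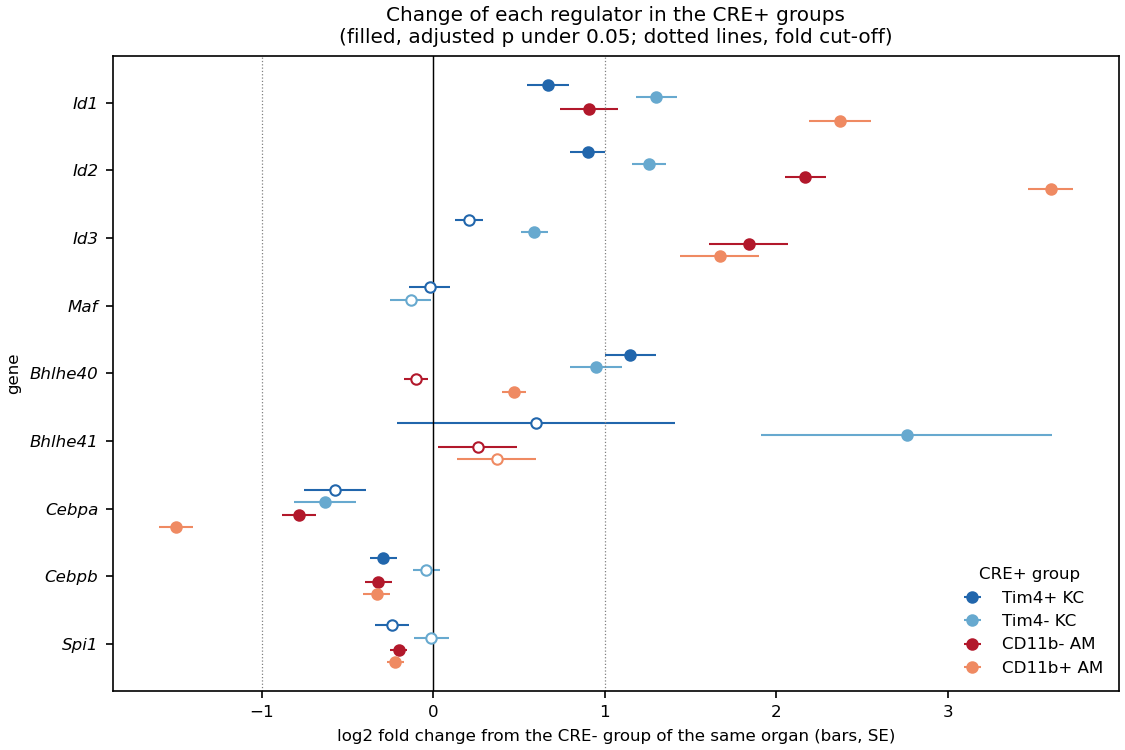
Log2 fold change of each regulator from the CRE- group of its organ (x axis; bars, SE) in Tim4+ and Tim4- KCs and in CD11b- and CD11b+ AMs; filled points had an adjusted p under 0.05 and dotted lines mark a log2 fold change of 1 in size. The Id genes lie to the right in both organs, from 0.21 for Id3 in Tim4+ KCs to 3.6 for Id2 in CD11b+ AMs, Cebpa lies to the left in all 4 groups and Maf, not tested in AMs, lies at 0 in KCs.

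In Tim4+ KCs 1 of the 9 genes rose, Bhlhe40, and 0 fell by edgeR, limma-voom or DESeq2 (3 lower at an unadjusted p under 0.05), where 1.94% of the 12500 genes tested rose, 0.376% fell and 6.09% passed the adjusted p alone. By adjusted p alone, Id1, Id2 and Bhlhe40 were higher and Cebpb was lower. In Tim4- KCs 3 genes rose by edgeR, Id1, Id2 and Bhlhe41. Bhlhe41 did not rise by limma-voom and had no adjusted p with DESeq2. By edgeR, limma-voom or DESeq2 0 fell (1 lower at an unadjusted p under 0.05). Over all genes 3.43% rose, 5.39% fell and 25.4% passed the adjusted p alone. By adjusted p alone Id3 and Bhlhe40 were also higher and Cebpa was lower. Between Tim4- and Tim4+ KCs 0 of the 9 were higher and 0 lower by edgeR, limma-voom or DESeq2 with the fold cut-off. This compares with 0.44% and 5.01% of all genes. DESeq2 gave Bhlhe41 no adjusted p here. At an unadjusted p under 0.05 by edgeR, 6 of the 9 were higher and 0 lower. At adjusted p alone Id1, Id2 and Id3 were higher in Tim4- KCs (11.5% of genes passed).

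Id1 in KCs stepped up from group to group. It ranged from 25.9 to 43.4 CPM in CRE- KCs (median 36.7), from 48.3 to 73.1 CPM in Tim4+ KCs (median 55.4) and from 78.3 to 99.2 CPM in Tim4- KCs (median 90.4). No 2 of the 3 groups overlapped. The log2 fold change from CRE- KCs was 0.67 ± 0.12 in Tim4+ KCs (adjusted p = 0.00105) and 1.3 ± 0.12 in Tim4- KCs (adjusted p = 1.26e-07), and Tim4- exceeded Tim4+ KCs by 0.63 ± 0.12 (adjusted p = 0.00131, edgeR).

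Id2 rose in the same order but with overlap between the CRE+ groups. Its medians were 187 CPM in CRE-, 364 in Tim4+ and 463 in Tim4- KCs, with ranges of 175 to 215, 270 to 435 and 385 to 560 CPM. All CRE+ libraries thus lay above all CRE- libraries. Relative to CRE- KCs the log2 fold change was 0.9 ± 0.1 in Tim4+ (adjusted p = 5.42e-06) and 1.26 ± 0.1 in Tim4- KCs (adjusted p = 1.82e-08), 2.4 times the CRE- level in the latter (edgeR).

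Id3 started high and differed least. It was 539 to 679 CPM in CRE- KCs, 612 to 827 in Tim4+ KCs (median 666) and 798 to 1020 in Tim4- KCs (median 890). Tim4+ and CRE- KCs overlapped (log2 fold change 0.21 ± 0.08, adjusted p = 0.156 by edgeR), whereas every Tim4- library exceeded every CRE- library (0.59 ± 0.08, adjusted p = 1.66e-05 by edgeR). In the split by Ddx3y, Id2 in Tim4- KCs was higher by 1.35 on the log2 scale in replicates 1 to 4 and by 1.12 in replicates 5 and 6, and Id1 by 1.32 and 1.36.

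In CD11b- AMs 2 of the 8 genes that could be tested rose, Id2 and Id3, and 0 fell by edgeR, limma-voom or DESeq2 (3 lower at an unadjusted p under 0.05), where 3.98% of 11573 genes rose, 2.51% fell and 25.7% passed the adjusted p alone. In CD11b+ AMs Id1, Id2 and Id3 rose and Cebpa fell, where 9.57% of genes rose, 5.68% fell and 43.2% passed the adjusted p alone. Between CD11b+ and CD11b- AMs Id1 and Id2 were higher and 0 lower by edgeR, limma-voom or DESeq2 with the fold cut-off, and 1 was lower at an unadjusted p under 0.05 (6.85% and 3.3% of genes, 36.4% by adjusted p alone). Maf did not pass the filter on low counts in AMs.

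Id2 separated the AM groups completely. It was 109, 91.4, 79.2, 80.1 and 69.6 CPM in CRE- AMs, 320, 357, 474, 430 and 356 CPM in CD11b- AMs and 1140, 1040, 954, 921 and 1210 CPM in CD11b+ AMs. No group overlapped another. The log2 fold change from CRE- AMs was 2.17 ± 0.12 in CD11b- AMs (adjusted p = 1.41e-10), a fold of 4.48, and 3.6 ± 0.13 in CD11b+ AMs (adjusted p = 2.51e-14), and the CRE+ groups differed by 1.43 ± 0.12 (adjusted p = 1.81e-08, edgeR).

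Id1 did the same in CD11b+ but less clearly in CD11b- AMs. CD11b- AMs held 40.2, 69.2, 101, 84.5 and 73.5 CPM, with replicate 1 inside the CRE- range of 32.7 to 47 CPM. CD11b+ AMs held 184, 206, 189, 195 and 240 CPM, above all other AM libraries. On the log2 scale Id1 exceeded CRE- AMs by 0.91 ± 0.17 in CD11b- (adjusted p = 0.000497) and 2.37 ± 0.18 in CD11b+ AMs (adjusted p = 1.09e-09, edgeR).

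Id3 rose in both CRE+ AM groups and did not separate them. It was 47, 58.8, 72.2, 48.6 and 81.9 CPM in CD11b- AMs and 46.3, 43.1, 56.2, 42.9 and 88.1 CPM in CD11b+ AMs, all above the highest CRE- value of 22.7 CPM. Id3 exceeded CRE- AMs by 1.84 ± 0.23 (adjusted p = 6.17e-06) and 1.67 ± 0.23 (adjusted p = 5.22e-06) on the log2 scale, and the difference between the CRE+ groups was -0.17 ± 0.22 (adjusted p = 0.591, edgeR). Even so, Id3 in every AM library stayed below every KC library.

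Over all 6 groups, Id2 medians ran from CD11b+ AMs down through Tim4- KCs, Tim4+ KCs and CD11b- AMs to CRE- KCs and CRE- AMs, and Tim4- KCs overlapped Tim4+ KCs, which overlapped CD11b- AMs. For Id1 the order was CD11b+ AMs, Tim4- KCs, CD11b- AMs, Tim4+ KCs, CRE- AMs and CRE- KCs, with gaps only below CD11b+ AMs and below Tim4+ KCs. For Id3 all KC groups came first, neighbour overlapping neighbour, and CRE- AMs came last without overlap.

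Genes used as markers of other cells moved beside the Id genes. The 10 liver endothelial markers summed to 704 to 2690 CPM in CRE-, 1410 to 4190 in Tim4+ and 434 to 635 in Tim4- KCs, and all 10 fell in Tim4- KCs while 0 changed in Tim4+ KCs (edgeR, 3 higher at an unadjusted p under 0.05). In CD11b+ AMs all 5 tested neutrophil markers rose, from a sum of 6.58 to 9.7 CPM in CRE- AMs to 716 to 2290 in CD11b- and 7780 to 10100 in CD11b+ AMs. That sum was mostly S100a8 (4070 to 5240 CPM), S100a9 (3200 to 4250) and Cxcr2 (499 to 641). Of the others, Mmp9 went from 0 to 0.285 CPM in CRE- AMs to 8.29 to 20.4 in CD11b+ AMs, Retnlg from 0 to 0.229 to 1.58 to 4.69, and Camp was at 0 to 0.0475 and 0 to 3.48 CPM. All 6 tested monocyte markers rose in CD11b+ AMs, from 7.69 to 13.8 CPM in sum to 100 to 304, and in Tim4- KCs the sum was 299 to 818 CPM against 87.4 to 313 in CRE- KCs with 1 of 5 tested markers past the test. Of the 5 epithelial keratin and adhesion genes, Epcam, Cdh1, Krt8 and Krt18 rose in both CRE+ AM groups, and their sum with Krt19 was 1140 to 1210 CPM in CRE-, 1640 to 1950 in CD11b- and 2350 to 2610 in CD11b+ AMs, the same order as for Id1 and Id2. Krt8 was 0 to 0.38, 40.2 to 84.5 and 395 to 755 CPM in these groups. The paper reports EpCam as a marker of the AMs that had deleted Zeb2, so Epcam is not read here as a sign of epithelial cells. Of the 7 lung secretory markers, 0 changed in CD11b- AMs (edgeR, 2 higher at an unadjusted p under 0.05) and 1, Sftpa1, rose in CD11b+ AMs, with sums of 20.1 to 30.3, 34.3 to 39.8 and 33.4 to 53.8 CPM. The part of any of these cells in the Id values was not tested.

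Of the 10 partners and relatives of the Id proteins, between 0 and 3 passed both thresholds in each CRE+ group. By adjusted p alone the E protein gene Tcf3 was lower in all 4 of these groups and Tcf4 in 3. Shares of all genes that passed it were 6.09% in Tim4+ KCs, 25.4% in Tim4- KCs, 25.7% in CD11b- AMs and 43.2% in CD11b+ AMs. Tcf12, another E protein gene, had means of 18.6, 19.3 and 18 CPM in CRE-, Tim4+ and Tim4- KCs. In CRE-, CD11b- and CD11b+ AMs the Tcf12 means were 22.3, 23.9 and 23.9 CPM. In CRE- KCs against CRE- AMs 3 of 9 tested were higher and 1 lower. In Tim4+ KCs 0 of 10 rose and 0 fell by edgeR with the fold cut-off (0 higher and 3 lower at an unadjusted p under 0.05), although Tcf3 was lower by adjusted p alone (log2 fold change -0.43 ± 0.11, adjusted p = 0.0205 by edgeR). In Tim4- KCs 0 rose (1 higher at an unadjusted p under 0.05) and 2 fell, Id4 and Tal1. Id4 was 1.3 to 12.5 CPM in CRE-, 3.47 to 25.8 in Tim4+ and 0.204 to 3.78 in Tim4- KCs. Tal1 was at 0 to 3.04, 0.417 to 1.77 and 0 to 0.552 CPM in the same groups. Both fell in the libraries where endothelial markers were lowest, and the part of endothelial cells in them was not tested. By adjusted p alone Tcf3 (-0.9 ± 0.11, adjusted p = 5.35e-06) and Tcf4 (-0.71 ± 0.11, adjusted p = 9.15e-05) were also lower in Tim4- KCs (edgeR). In CD11b- AMs Mxd1, a bHLH antagonist of Myc, rose and Tcf4 fell (-1.35 ± 0.23, adjusted p = 0.000219 by edgeR), of 8 tested. In CD11b+ AMs Mxd1 (3.4 ± 0.18, adjusted p = 5.46e-12) rose and Mxd4 (-1.16) fell, and Hes1, a target of Notch signalling, passed the test at 0.417 to 2.07 CPM against 0 to 0.195 in CRE- AMs. The list's median log2 fold change was 0.03, -0.1, -0.16 and -0.17 in Tim4+ KCs, Tim4- KCs, CD11b- AMs and CD11b+ AMs, beside 0, -0.03, 0 and -0.01 over all genes tested.

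Of the 12 genes of BMP reception and SMAD signalling, the type I receptor gene Bmpr1a went in opposite directions in the organs. Bmpr1a was 24.8 to 37.1 CPM in CRE- KCs (median 29.1), 4.19 to 15.1 in Tim4+ KCs (median 6.83) and 0 in 4 of 6 Tim4- KC libraries, with 0.935 and 0.23 CPM in the other two. A count of 0 allows up to 3 counts, at most 0.306 CPM in the shallowest library. These 3 KC groups did not overlap. The paper lists Bmpr1a among genes that differ between embryonic and monocyte-derived KCs, and the part of cell origin in these values was not tested. In AMs Bmpr1a was 8.87, 2.97, 1.97, 12.7 and 7.89 CPM in CRE-, 19.9, 15.9, 20.7, 25.5 and 15.2 CPM in CD11b- and 45.2, 41, 47.1, 44 and 36.1 CPM in CD11b+ samples. The AM groups did not overlap either, and their order was the reverse of that in KCs.

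**Figure D3:**
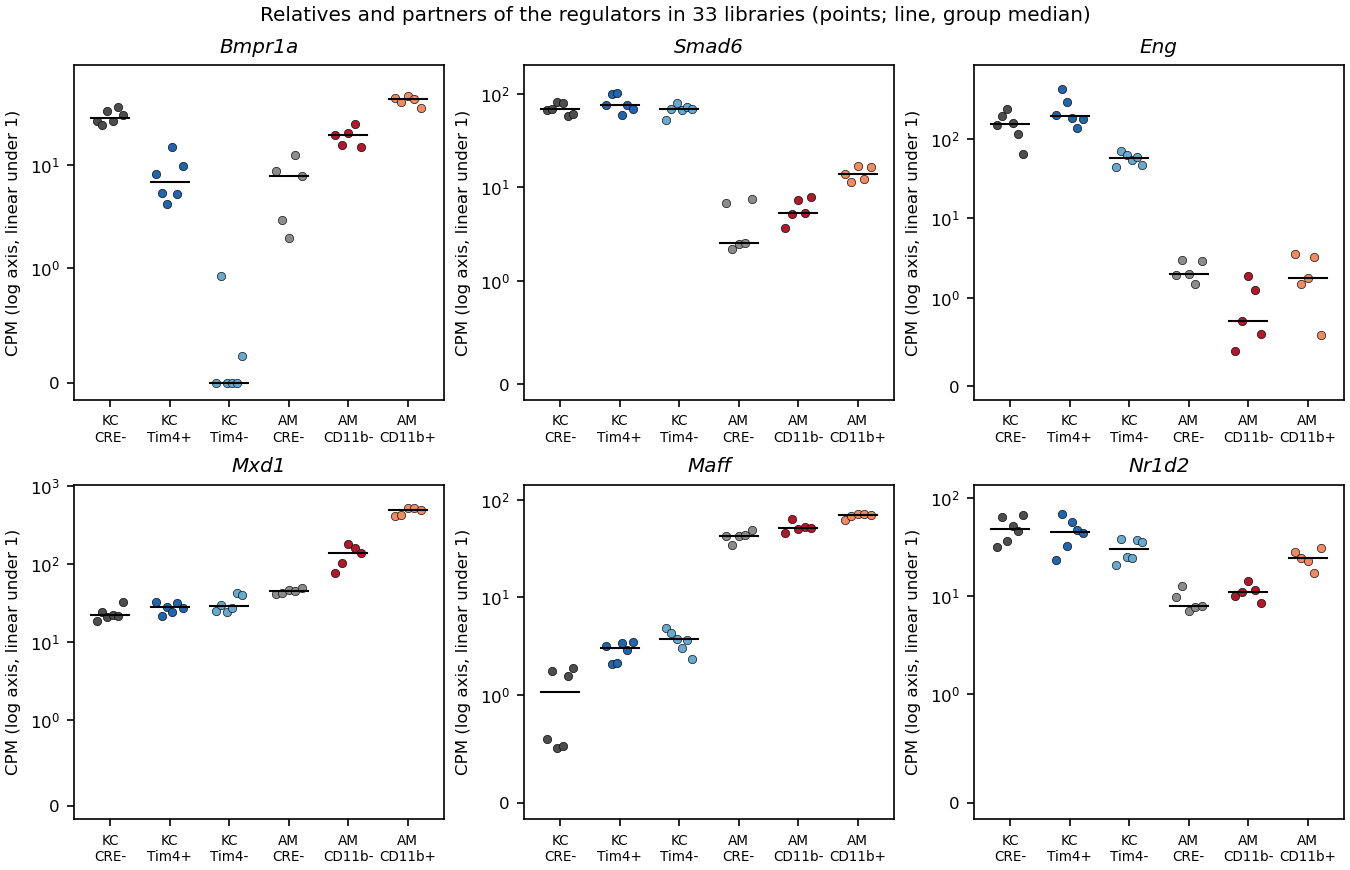
CPM (log axes, linear under 1) of the BMP pathway genes Bmpr1a, Smad6 and Eng, the Id relative Mxd1, the Maf relative Maff and the clock-controlled gene Nr1d2 in all 33 libraries, by group; each point is 1 library and each line the group median. Bmpr1a falls from 24.8 to 37.1 CPM in CRE- KCs to under 1 CPM in Tim4- KCs and rises in the CRE+ AM groups.

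The log2 fold change of Bmpr1a was -1.93 ± 0.44 in Tim4+ KCs (adjusted p = 0.00846), 1.49 ± 0.32 in CD11b- AMs (adjusted p = 0.00179) and 2.62 ± 0.33 in CD11b+ AMs (adjusted p = 1.7e-06), and the edgeR adjusted p for Tim4- KCs was 4.44e-08, with a size that depends on how counts of 0 are treated. Averaged over the CRE+ groups of each organ, its change in KCs minus its change in AMs gave an adjusted p of 1.53e-10 (edgeR). Eng, a co-receptor for BMP ligands that endothelial cells also express, fell in Tim4- KCs (-1.45 ± 0.27, adjusted p = 4e-04), in the libraries where endothelial markers were lowest. Smad6, an inhibitory SMAD that BMP signalling induces, was at 0.2 ± 0.13 and -0.04 ± 0.13 in Tim4+ and Tim4- KCs (adjusted p = 0.483 and 0.847) and rose in CD11b+ AMs (1.72 ± 0.32, adjusted p = 2e-04, edgeR). In counts, 0 of the 12 rose (edgeR, 2 higher at an unadjusted p under 0.05) and 1 fell in Tim4+ KCs, 1 (Smad9, at 0 to 2.76 CPM) rose and 2 fell in Tim4- KCs, 1 rose and 1 (Bambi) fell in CD11b- AMs and 2 rose and 1 (Acvrl1) fell in CD11b+ AMs, of 11 tested in AMs. By adjusted p alone 0 were higher and 1 lower in Tim4+ KCs, and 1 higher and 7 lower in Tim4- KCs. In AMs 1 was higher and 2 lower in CD11b- and 2 higher and 3 lower in CD11b+ samples. The shares of all genes that passed were 6.09%, 25.4%, 25.7% and 43.2% in these groups. The list's medians were -0.17, -0.55, -0.12 and -0.11 on the log2 scale.

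Maf did not pass the test in either CRE+ KC group. It was 86.1 to 112 CPM in CRE-, 83.5 to 119 in Tim4+ and 70.9 to 125 in Tim4- KCs, with full overlap and log2 fold changes of -0.02 ± 0.12 (adjusted p = 0.968) and -0.13 ± 0.12 (adjusted p = 0.439, edgeR). In CD11b- AMs the counts were 4, 6, 6, 2 and 5, and in CD11b+ AMs 18, 7, 9, 27 and 39, against 0 to 4 in CRE- AMs. The highest CD11b+ value, 2.26 CPM, was far below the lowest KC value of 70.9 CPM. With no filter on low counts, the edgeR adjusted p was 0.227 for CD11b- and 0.00304 for CD11b+ against CRE- AMs.

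Of the 6 tested Maf and bZIP relatives, Maff was the only gene past both thresholds in a CRE+ group against its CRE- group. Maff, which encodes a small Maf protein without a transactivation domain, was 0.507 to 1.86 CPM in CRE-, 2.08 to 3.49 in Tim4+ and 2.35 to 4.9 in Tim4- KCs, so both CRE+ groups lay above the CRE- group. It rose by 1.3 ± 0.36 on the log2 scale in Tim4+ (adjusted p = 0.0342) and by 1.66 ± 0.37 in Tim4- KCs (adjusted p = 0.00204, edgeR). In CD11b- and CD11b+ AMs 0 of the 6 rose and 0 fell by edgeR with the fold cut-off, and 1 and 4 of them were higher at an unadjusted p under 0.05. Between the CRE- groups, Bach2, a bZIP repressor, was higher and Maff lower in KCs. The list's medians were 0.19, 0.2, 0.08 and 0.45 on the log2 scale in Tim4+ KCs, Tim4- KCs, CD11b- AMs and CD11b+ AMs.

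Bhlhe40 was higher in both CRE+ KC groups. It was 27.2 to 37.5 CPM in CRE- KCs, 56.1 to 82.8 in Tim4+ KCs (median 76.9) and 37.7 to 88.1 in Tim4- KCs (median 66.5), and no CRE+ library fell to the CRE- range. Bhlhe40 exceeded CRE- KCs by 1.15 ± 0.15 on the log2 scale in Tim4+ (adjusted p = 4.14e-05) and 0.95 ± 0.15 in Tim4- KCs (adjusted p = 0.000103, edgeR), the latter just inside the fold cut-off. The Tim4+ difference was 1.18 in replicates 1 to 4 and 1.14 in replicates 5 and 6. In AMs Bhlhe40 was 420, 537, 472, 519 and 535 CPM in CD11b- samples, within or below the CRE- range, and 709, 751, 719, 726 and 810 CPM in CD11b+ samples, above it. The CD11b+ difference was 0.47 ± 0.07 on the log2 scale (adjusted p = 2.26e-05) and the CD11b- difference -0.1 ± 0.07 (adjusted p = 0.319, edgeR). All KC libraries stayed below all AM libraries.

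Bhlhe41 in KCs was set by single libraries. Its values in replicates 1 to 6 were 68.7, 20.2, 19, 21.6, 24.1 and 18.3 CPM in CRE-, 67.2, 90.5, 20.2, 23.4, 30.5 and 32.5 CPM in Tim4+ and 1020, 32.2, 20.3, 63.3, 32.1 and 26.7 CPM in Tim4- KCs. Tim4- replicate 1 held 9970 Bhlhe41 counts, in the library with the fewest counts of all. The groups overlapped. The log2 fold change of Tim4- KCs was 2.76 ± 0.85 (adjusted p = 0.0209 by edgeR), but without Tim4- replicate 1 it was 0.26 (adjusted p = 0.692), and the remaining 5 libraries had 34.9 ± 16.6 CPM (mean ± SD).

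That library differed in other genes as well. In it 12 genes were at 10 CPM or more and at least 4 times the highest other library of the group, against 0 to 3 such genes in each of the other 32 libraries. Beside Bhlhe41 these included Dst, the gene of the cytoskeletal linker dystonin, with 376 against 37.9 CPM, Ppp1r16b with 44.7 against 9.11, Asns, which encodes asparagine synthetase, with 29.9 against 0.987 and Prr15 with 26.5 against 1.94. Dst was also the gene whose log2 CPM followed Bhlhe41 most closely over the 33 libraries (r = 0.871), of which this library is one. Within KCs, with this library, r was 0.94, and within AMs 0.57. The cause was not tested.

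**Figure D4:**
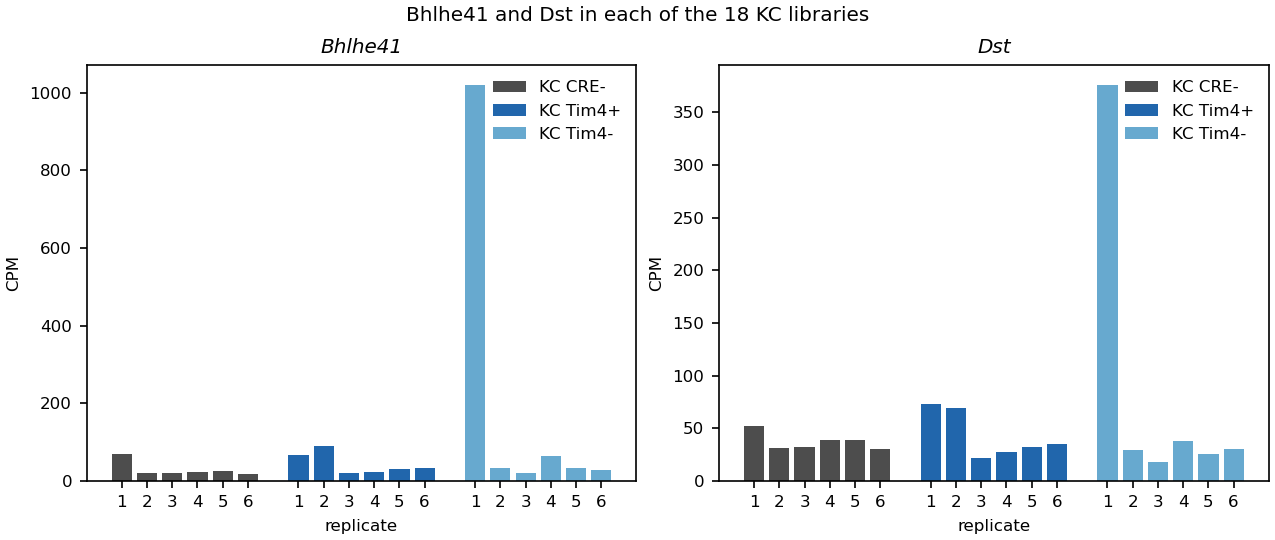
CPM of Bhlhe41 and of Dst (y axes, from 0) in each of the 18 KC libraries (x axis, replicates 1 to 6 of CRE-, Tim4+ and Tim4- KCs); each bar is 1 library. Tim4- replicate 1 stands alone at 1020 CPM of Bhlhe41 and 376 CPM of Dst, and Dst is at 72.7 and 69.3 CPM in Tim4+ replicates 1 and 2.

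In AMs Bhlhe41 was 98.8, 68.9, 65.4, 140 and 51.7 CPM in CD11b- and 126, 105, 79.9, 81 and 69.7 CPM in CD11b+ samples, both overlapping the CRE- range of 43.6 to 82.3 CPM. The log2 fold changes were 0.26 ± 0.23 (adjusted p = 0.453) and 0.37 ± 0.23 (adjusted p = 0.201, edgeR). Of the 11 tested circadian partners of both repressors, 4 were higher (Nr1d2, Dbp, Tef, Per3) and 3 lower (Per1, Per2, Cry1) in CRE- KCs than in CRE- AMs, and 0 rose and 0 fell in Tim4+ or Tim4- KCs by edgeR with the fold cut-off. At an unadjusted p under 0.05, 1 of the circadian genes was higher and 1 lower in Tim4+ KCs and 5 were lower in Tim4- KCs. By adjusted p alone 0 passed in Tim4+ KCs and 4 were lower in Tim4- KCs, where 25.4% of genes passed. With that rule 1 was higher and 5 lower in CD11b- AMs, and 2 higher and 4 lower in CD11b+ AMs (25.7% and 43.2% of genes). In CD11b- AMs Per2 (-1.04 ± 0.2, adjusted p = 0.000816) and Cry2 (-1.38 ± 0.37, adjusted p = 0.00999), which encode arms of the negative loop, fell. In CD11b+ AMs Nr1d2, a clock-controlled nuclear receptor gene, rose (1.43 ± 0.19, adjusted p = 3.18e-06) and Cry2 fell (-1.67 ± 0.38, adjusted p = 0.00132, edgeR). The list's medians were -0.24, -0.67, -0.6 and -0.76 on the log2 scale, and the time of day of the sorts is not given in the sources used here.

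Cebpa fell beyond the fold cut-off in CD11b+ AMs, was lower by adjusted p alone in Tim4- KCs and CD11b- AMs, and did not pass in Tim4+ KCs. It was 88.7 to 147 CPM in CRE- KCs (median 133), 57.9 to 122 in Tim4+ KCs (median 80.6) and 59.2 to 99 in Tim4- KCs (median 79.2), and the ranges overlapped. On the log2 scale the KC difference was -0.57 ± 0.18 in Tim4+ (adjusted p = 0.068) and -0.63 ± 0.18 in Tim4- KCs (adjusted p = 0.0129, edgeR), the latter -0.59 in replicates 1 to 4 and -0.66 in replicates 5 and 6. In AMs, by contrast, no groups overlapped, with 128, 132, 112, 96.1 and 118 CPM in CD11b- and 61.2, 57.3, 79.3, 83.2 and 76.6 CPM in CD11b+ samples, all below the lowest CRE- value of 184 CPM. Relative to CRE- AMs Cebpa was at -0.78 ± 0.1 on the log2 scale in CD11b- (adjusted p = 1.05e-05) and -1.5 ± 0.1 in CD11b+ AMs (adjusted p = 3.46e-10), and CD11b+ lay below CD11b- AMs by -0.72 ± 0.1 (adjusted p = 1.46e-05, edgeR). Cebpa thus ran opposite to Id2 over the AM groups, with r = -0.97 over 15 AM libraries and -0.56 after the group means were removed. With Id1 and Id3 in AMs r was -0.93 and -0.71, and -0.29 and 0.21 after that removal. Between Cebpa and Id2 in 18 KC libraries r was -0.64, and -0.1 after that removal. These values are a description over libraries that share their normalization.

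Cebpb and Spi1 differed from CRE- by under 0.4 on the log2 scale in every CRE+ group. Cebpb ranged from 496 to 658 CPM in Tim4+ KCs and from 593 to 820 in Tim4- KCs, overlapping CRE- KCs. It was 2600, 3140, 2450, 2650 and 2530 CPM in CD11b- and 2550, 2440, 2520, 2790 and 3050 CPM in CD11b+ AMs. Cebpb was lower by adjusted p alone in Tim4+ KCs (-0.29 ± 0.08, adjusted p = 0.0473), CD11b- AMs (-0.32 ± 0.08, adjusted p = 0.00381) and CD11b+ AMs (-0.33 ± 0.08, adjusted p = 0.00138, edgeR), and was at -0.04 ± 0.08 in Tim4- KCs.

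Spi1 ranged from 533 to 624 CPM in Tim4+ and from 480 to 761 in Tim4- KCs. In AMs it was 641, 711, 608, 608 and 667 CPM in CD11b- and 639, 615, 647, 643 and 653 CPM in CD11b+ samples, the latter all below the CRE- range of 706 to 768 CPM. Spi1 differed from the CRE- group by -0.2 ± 0.05 (adjusted p = 0.00893) and -0.22 ± 0.05 (adjusted p = 0.00177) in the AM groups, and -0.24 ± 0.1 (adjusted p = 0.167) and -0.01 ± 0.1 (adjusted p = 0.953) in Tim4+ and Tim4- KCs (edgeR).

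Of the 7 tested relatives of the Cebp genes, 1 was higher (Ddit3) and 3 lower (Nfil3, Trib1, Atf4) in CRE- KCs than in CRE- AMs, and Ddit3, a stress-induced member, was the only one past both thresholds in a CRE+ group, rising in CD11b+ AMs. Of the ETS, IRF and RUNX partners of Spi1, Runx3 rose and Ets1 (-1.06) fell among 15 tested in Tim4- KCs. Runx3 went from 0 to 0.701 CPM in CRE- KCs to 0.085 to 3.9 CPM. Ets1 was 80.7 to 145 CPM in CRE-, 102 to 217 in Tim4+ and 37.6 to 65 in Tim4- KCs, lowest where endothelial markers were lowest. The part of endothelial cells in Ets1 was not tested. By edgeR with the fold cut-off 0 of these partners rose and 0 fell in Tim4+ KCs (2 higher and 1 lower at an unadjusted p under 0.05). The same held in CD11b- AMs (1 and 7 of 16 tested) and in CD11b+ AMs (4 and 4). Of the 11 tested textbook targets of Spi1 and the Cebp factors, 1 rose in each CRE+ KC group, 3 rose in CD11b- AMs, 2 rose in CD11b+ AMs and 0 fell (edgeR with the fold cut-off, 4 to 6 lower at an unadjusted p under 0.05). By adjusted p alone, 1 was higher and 3 lower in Tim4+ KCs, and 3 were higher and 4 lower in each of the other CRE+ groups. Csf1r, the receptor gene for M-CSF, was lower in all 4 groups by adjusted p alone, with log2 fold changes of -0.42, -0.32, -0.71 and -0.62 in Tim4+ KCs, Tim4- KCs, CD11b- AMs and CD11b+ AMs. Ncf1, a subunit gene of the NADPH oxidase, was lower in CD11b- (-0.81 ± 0.13, adjusted p = 0.000127) and CD11b+ AMs (-0.88 ± 0.13, adjusted p = 1.75e-05, edgeR). Itgam, the CD11b gene itself, rose in all 4 CRE+ groups, by 1.09 ± 0.14 in Tim4+ and 1.29 ± 0.14 in Tim4- KCs and by 3.19 ± 0.25 in CD11b- and 7.08 ± 0.25 in CD11b+ AMs. CD11b was the sorting marker of both CRE+ AM groups, so their Itgam levels depend on the sort and are not a finding. Itgam is nevertheless included in the counts of targets that rose in these groups. Csf3r, the G-CSF receptor gene, rose by 1.56 ± 0.13 in CD11b- (adjusted p = 2.9e-08) and by 3.26 ± 0.14 in CD11b+ AMs (adjusted p = 2.2e-13, edgeR), while its fold change was 0.37 ± 0.14 and 0.66 ± 0.14 in Tim4+ and Tim4- KCs. Among the regulators of KC and AM identity, Pparg, which AMs require, rose in Tim4- KCs (1.17 ± 0.22, adjusted p = 0.000441) and Zeb1, the relative of Zeb2, in CD11b+ AMs (2.08).

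The changes were then compared between organs in 1 edgeR fit over all 33 libraries, as the change averaged over Tim4+ and Tim4- KCs minus the change averaged over CD11b- and CD11b+ AMs. Of the 9 genes 0 were higher by edgeR, limma-voom or DESeq2 (2 at an unadjusted p under 0.05), although DESeq2 gave Bhlhe41 no adjusted p. Lower beyond the fold cut-off were 3, Id2, Id3 and Maf. Over all 13294 genes tested, 3.5% were higher, 4.65% lower and 19.5% passed the adjusted p alone. The difference was -1.79 ± 0.15 for Id2 (adjusted p = 2.94e-11), with mean changes of 1.08 in KCs and 2.88 in AMs. For Id3 it was -1.34 ± 0.21 (adjusted p = 8.74e-06), with 0.4 in KCs and 1.75 in AMs, so both Id genes moved up further in the organ where they began lower. For Maf the AM values rest on counts of 0 to 39, and the sign only says that Maf was higher in CRE+ AMs and level in KCs (adjusted p = 0.000537). Within the fold cut-off, the difference was -0.65 ± 0.19 for Id1 (adjusted p = 0.0124), 0.88 ± 0.16 for Bhlhe40 (adjusted p = 7.41e-05) and 0.55 ± 0.2 for Cebpa (adjusted p = 0.0479, edgeR). Bhlhe41, Cebpb and Spi1 did not pass (adjusted p = 0.291, 0.296 and 0.63). Since Cre driver and sorting scheme differ with the organ, an organ difference and a driver difference cannot be told apart.

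The genes whose log2 CPM followed each regulator most closely over the 33 libraries, among 8097 genes, are given as a description, since the points share groups and normalization. For Id1 they were Crot and Ppm1m (r = 0.935 and 0.924), and both also followed it within KCs (0.88 and 0.86) and within AMs (0.96 and 0.97). For Id2 they were Cnn2 and Slc2a1, the glucose transporter gene (r = 0.954 and 0.939; within KCs 0.76 and 0.9, within AMs 0.98 and 0.99). For Cebpa they were Pla2g15 and Aebp2 (r = 0.86 and 0.844) and for Spi1 Gpsm3 and Arpc1b (r = 0.821 and 0.814), with values within organs from 0.69 to 0.89. For Id3 they were Lacc1 and Blvrb (both 0.981; within KCs 0.21 and 0.66, within AMs 0.82 and 0.87) and for Maf Ckb and Marcks (0.989 and 0.988; within KCs -0.52 and -0.26, within AMs 0.9 and 0.9). For Bhlhe40 they were Nek6 and Tob1 (0.988 and 0.986; within KCs 0.8 and 0.84, within AMs 0.78 and 0.23) and for Cebpb Mapk3 and Esyt1 (0.991 and 0.987; within KCs 0.52 and 0.56, within AMs 0.74 and 0.45). Among the 3 Id genes in 18 KC libraries, r was 0.92 for Id1 and Id3, 0.89 for Id1 and Id2 and 0.78 for Id2 and Id3, and after group means were removed 0.61, 0.16 and -0.09. In 15 AM libraries r was 0.94 for Id1 and Id2, 0.82 for Id2 and Id3 and 0.7 for Id1 and Id3, and after group means were removed 0.64, 0.33 and 0.6.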

How the data were processed

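Bulk RNA-Seq was measured in 33 libraries of 25000 FACS-sorted cells each. Per the labels, reads were checked with FastQC 0.11.4, trimmed with Trimmomatic 0.35 (bases below quality 20, reads shorter than 35 bases dropped), mapped to mm10 with TopHat2 2.1.0 and handled with SAMtools 0.1.18. The authors then counted reads per gene with HTSeq-count and deposited raw read counts. The counting version, annotation and strand setting are not given in the sources used here. Each file also held 5 tally rows, left out of library sizes, of which reads in no feature were 4.52 to 8.9% and ambiguous reads 1.19 to 1.39% of all. No column of another sample was present (0 left out).

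Groups were taken from the source names. Counts were normalized with TMM factors, genes with low counts were removed with filterByExpr, and groups were compared with edgeR 4.0.16 (quasi-likelihood test, R 4.3.3), fitted within KCs, within AMs, over both CRE- groups or over all 33 libraries for the organ difference. P-values were Benjamini-Hochberg adjusted over all genes tested. Genes were called changed at an adjusted p under 0.05 and a log2 fold change beyond 1 in size. CPM are normalized with the TMM factors, and log2 CPM used a prior count of 0.5. The floor of 3 counts covers counting error only, whereas the SE of a fold change comes from the fit and includes the spread between libraries.

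The 9 genes and the lists of partners, relatives and markers were chosen with earlier results of these data known. 1 gene of the lists is not reported here and was left out of their counts. All 9 genes were named. Of a list, the rule names the 2 most abundant genes that changed and those needed where 5 or fewer changed. Tcf3, Tcf12, Smad6, Csf1r, Ncf1, the single monocyte markers and the genes that stood apart in a library were named after their values were seen. For likeness, the 2 genes with the highest Pearson r per regulator were named, among genes with a mean of at least 3 on the log2 CPM scale. Positions and exon lengths come from GENCODE M21 (GRCm38) and promoters from RefSeq. Alternatives were limma-voom (limma 3.58.1), DESeq2 1.42.0, other scaling, filters, fold cut-offs and sample sets, a replicate block, Ddx3y as a covariate and each replicate left out. The scripts were tested on simulated data. Figures were drawn with matplotlib 3.10.9. No libraries of a group agreed within sampling noise.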

Additional observations from a re-analysis of the deposited data

Results flagged for a closer look

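Of 54 sets of 5 or 6 libraries (9 genes in 6 groups), 3 held a library set apart by Dixon's test, where chance gives about 1 in 20. Bhlhe41 stood at 68.7 CPM in CRE- KC replicate 1 and at 1020 CPM in Tim4- KC replicate 1, against 18.3 to 24.1 and 20.3 to 63.3 CPM in the other libraries of each group. Cebpb stood at 3140 CPM in CD11b- AM replicate 2, against 2450 to 2650 CPM in the other CD11b- AM libraries.

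The change from CRE- to CRE+ groups differed between KCs and AMs for 6 genes at an adjusted p under 0.05 (edgeR, KC minus AM). The difference was -0.65 for Id1, -1.79 for Id2, -1.34 for Id3 and -3.05 for Maf on the log2 scale, all with the larger increase in AMs, although the Maf value rests on AM counts of 0 to 39 and its size depends on the prior count. It was 0.88 for Bhlhe40, which was higher mainly in KCs, and 0.55 for Cebpa, which was lower by more in AMs.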

How the results depend on the processing

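A gene was called where it passed the adjusted p and the fold cut-off together. Of 642 fold changes of the 9 genes under other settings, 607 kept their direction and call, 4 lost the call, 23 gained it and 8 changed sign. Of 960 with a replicate left out these numbers were 938, 1, 4 and 17. Dropping the fold cut-off was among the settings, and it adds calls with no change in any p-value. Counts of changed genes moved in 10 of 150 cases and in 0 of 220 with a replicate left out. With no fold cut-off, 3 genes were higher and 1 lower in Tim4+ KCs, 5 higher and 1 lower in Tim4- KCs, 3 higher in Tim4- than Tim4+ KCs, 3 lower in CD11b- and 3 in CD11b+ AMs, 1 lower in CD11b+ than CD11b- AMs and 2 higher in the organ difference. With all 33 libraries in 1 fit, 1 gene was higher in Tim4- than Tim4+ KCs (Bhlhe41, 2.16, adjusted p = 0.0315, edgeR). No value that changed sign passed a test, and the cause was not tested. Maf in Tim4+ KCs was at 0 in that fit and with KC replicates 1 to 4 only (chosen after seeing the data), and -0.06 to 0.04 with a replicate left out. Spi1 in Tim4- KCs was at 0 with DESeq2 or its scaling, 0.01 with 10 counts in every sample, with all 33 or with only the groups compared, and -0.06 to 0.07 with a replicate left out. Cebpb in Tim4- KCs was at 0.04 with replicates 1 to 4. With a replicate left out, Tim4- against Tim4+ KCs ranged from -0.33 to 2.51 for Bhlhe41 (the lowest without Tim4- replicate 1, 2.16 with it) and -0.15 to 0.07 for Cebpa, and CD11b+ against CD11b- AMs from -0.02 to 0.37 for Bhlhe41, -0.06 to 0.05 for Cebpb and -0.05 to 0.01 for Spi1.

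Bhlhe41 in Tim4- KCs (2.76) was 0.89 with limma-voom (adjusted p = 0.342) and 1.34 with the replicate block (adjusted p = 0.0639). It was 3.1 with replicates 1 to 4 (adjusted p = 0.0503) and had no adjusted p with DESeq2 (2.79). DESeq2 also gave Bhlhe41 no adjusted p in Tim4+ KCs (0.61), between Tim4- and Tim4+ KCs (2.18) and in the organ difference (1.35). There it was counted as not called. Bhlhe41 in KCs against AMs was -1.3 with all 33 libraries (adjusted p = 0.104). Bhlhe40 in Tim4- KCs lay at 0.84 to 1.06 and Id1 in CD11b- AMs at 0.78 to 1.07 with a replicate left out, on both sides of the fold cut-off. Same-numbered samples correlated at -0.055 to 0.203, and only between Tim4- and Tim4+ KCs were 5 of 6 pairs over 0.1 (0.094 to 0.203). There all 12 libraries correlated best with their own number, and Asns in replicate 1, Cyp26b1 in 2, Gzma in 3 and Egr2 in 6 stood apart in both sorts. Such best matches held for 8 of 10 libraries between CD11b+ and CD11b- AMs and for 8 of 10 between CD11b+ and CRE- AMs. They held for 1 of 10 between CD11b- and CRE- AMs, and against CRE- KCs for 3 of 12 with Tim4+ and 5 of 12 with Tim4- KCs. Cxcl9 stood apart in replicate 3 of both CRE+ AM sorts (13.3 and 13.5 CPM). These are hints from the data and not from the labels. As not every pair passed 0.1, the numbers were not taken to pair samples. The main tests between the CRE+ sorts of an organ thus treated their libraries as independent, which was not settled. The replicate block left the counts of the 9 genes as they were, except for 2 in place of 3 higher in Tim4- KCs.

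Over all genes, higher and lower counts went with no fold cut-off from 2543 and 1502 to 4048 and 3632 in KCs against AMs, 242 and 47 to 454 and 307 in Tim4+ KCs, 429 and 674 to 1522 and 1647 in Tim4- KCs, 55 and 626 to 480 and 953 between Tim4- and Tim4+ KCs, 461 and 291 to 1534 and 1438 in CD11b- AMs, 1108 and 657 to 2635 and 2369 in CD11b+ AMs, 793 and 382 to 2295 and 1920 between the CRE+ AMs and 465 and 618 to 1331 and 1266 in the organ difference. With at least 10 counts in every sample, which tests fewer genes, those over 1.5 times from these were 1221 higher in KCs against AMs, 155 higher in Tim4+, 271 and 417 in Tim4- KCs, 407 lower in Tim4- than Tim4+ KCs, 221 and 173 in CD11b- AMs, 616 higher in CD11b+ AMs, 404 higher in CD11b+ than CD11b- AMs and 245 and 277 in the organ difference. In Tim4+ KCs 73 were lower with limma-voom and 28 with replicates 1 to 4, and without Tim4- replicate 3, 34 were higher in Tim4- than Tim4+ KCs. The depth leaves Maf in AMs at about the floor.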
